A study of Mus musculus with 6 samples.

Results

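The genes described here encode 9 RNA-binding proteins that steer alternative splicing in striated muscle, namely Mbnl1, Mbnl2, Mbnl3, Celf1, Celf2, Rbfox1, Rbfox2, Rbm20 and Rbm24. They were chosen by name and not by a rule on measured values, although earlier results of these data were known. They are 9 of the 18089 genes and 221 of the 58843 RefSeq transcripts measured. Bulk RNA-seq was done on ischemic gastrocnemius muscle taken 7 days after hindlimb ischemia (HLI), which was produced by ligating the femoral artery on the left. The WT group was 3 male C57BL/6 mice with an intact Gpr174 gene, which encodes a G protein-coupled receptor, and the Gpr174-KO group was 3 male mice of the same strain lacking the gene on their single X chromosome (Gpr174-/Y). All were 8 to 10 weeks old and all had been operated on, so no muscle without ischemia entered the comparison. The receptor was missing from every cell of the knockout animals, and whole muscle was sequenced, so fibres, leukocytes, fibroblasts and vessel cells contributed to each value.

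Alternative splicing is regulated by proteins that bind short motifs in a pre-mRNA and promote or block the use of nearby exons. MBNL proteins rise in activity as muscle matures and drive adult splicing patterns, whereas CELF proteins favour the fetal patterns of many of the same exons, and the balance between the families is disturbed in myotonic dystrophy. RBFOX proteins act on exons of many muscle and neuronal genes, RBM20 represses exons of titin, and RBM24 is a muscle-enriched splicing factor needed for sarcomere formation.

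The libraries held 18417107 to 18695036 estimated counts in WT and 19173051 to 19394505 in Gpr174-KO. Gpr174 itself had 8, 2 and 5 counts in the WT libraries and 1, 0 and 0 in the knockout libraries, lower in every knockout library but at few reads. Replicate 2 lay between replicates 1 and 3 in 88.0% of 3881 abundant genes in WT and in 74.7% in Gpr174-KO. It did so for 9 and 5 of the 9 regulators, which were counted whatever their level. Whether replicate 2 is independent of the other two was not tested, and every SD and p-value of 3 libraries a group takes it to be. With replicates 1 and 3 alone, 0 of 14447 genes passed the test by edgeR. The changes of Rbm24, Rbm20 and Celf2 were then -0.42, -0.30 and 0.37 on the log2 scale, and these 3 of the 9 regulators had an unadjusted p under 0.05. Markers of mature fibres summed to 148149 to 211935 CPM in WT and 67489 to 74717 in Gpr174-KO. CPM are counts scaled to a common library size, here with the TMM scaling described below. Macrophage markers summed to 1444 to 2239 CPM in WT and 3372 to 3434 in Gpr174-KO, and fibroblast markers to 16742 to 25015 and 32916 to 36138. Endothelial markers summed to 1003 to 1171 CPM in WT and 638 to 727 in Gpr174-KO. Of the 8 fibroblast markers, 4 were higher in Gpr174-KO and 3 lower (adjusted p under 0.05 by edgeR), so their sum does not speak for every marker. Fewer cells of a type and less RNA per cell cannot be told apart in such tissue.

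Several of the regulators control an exon in their own transcripts, and the best known is an alternative coding exon of 54 bases that Mbnl1 and Mbnl2 share. It helps to keep the protein in the nucleus, and MBNL proteins themselves promote its skipping. The 2 exons are shown because the transcript rows of both genes were searched for them. They lie at chr3:60614683-60614736 on the plus strand in Mbnl1 and at chr14:120395712-120395765 on the plus strand in Mbnl2 (GRCm38, GENCODE M21), they are internal coding exons, and 46 of their 54 bases are equal. Capitals mark the 8 bases that differ.
Mbnl1 alternative exon: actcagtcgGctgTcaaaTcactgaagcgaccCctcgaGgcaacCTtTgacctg
Mbnl2 alternative exon: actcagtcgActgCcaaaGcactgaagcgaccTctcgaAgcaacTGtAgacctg

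Levels between genes were compared in TPM, a share of the library's transcripts that is scaled for transcript length. In WT, Rbm24 was the most abundant of the 9 with 145 ± 3.27 TPM (SD, n = 3), followed by Mbnl2 with 93.8 ± 1.57 TPM, Mbnl1 with 74.1 ± 9.47 TPM and Rbfox1 with 71.7 ± 15.2 TPM. Rbfox2 stood at 52.7 ± 4.07 TPM, Celf1 at 29.5 ± 0.682 TPM, Celf2 at 21.0 ± 1.05 TPM, Rbm20 at 15.7 ± 0.871 TPM and Mbnl3 at 0.780 ± 0.156 TPM. The order was the same in Gpr174-KO, where Rbm24 had 143 ± 8.598 TPM and Mbnl3 1.55 ± 0.298 TPM. In both groups the ranges of Mbnl1 and Rbfox1 overlapped, as did those of Rbfox1 and Rbfox2, and every other pair of neighbours was apart in WT. Celf1 and Celf2 were apart in WT, at 28.7 to 30.0 and 20.3 to 22.2 TPM, but overlapped in Gpr174-KO, at 35.2 to 38.3 and 32.0 to 38.5 TPM.

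Differences between groups were tested on estimated counts with edgeR's quasi-likelihood test after TMM scaling, a library scaling that takes most genes as unchanged. All CPM are on that scale, and a gene was called at an adjusted p under 0.05, with Benjamini-Hochberg adjustment over all 14395 genes tested. All 9 regulators passed the filter on low counts. Of them, 1 was called higher in Gpr174-KO (Celf2) and 3 lower (Mbnl1, Rbm20 and Rbm24), beside 27% and 27.6% of all genes tested. The 4 calls of 9 stand against 54.6% of all genes called in either direction. Called with a difference of more than 2-fold were 0 of the 9, against 8.28% of all genes. The groups did not overlap for 6 of the 9, against 65.6% of all genes tested. The regulators were therefore not called more often than genes at large, and their differences were small, from -0.42 to 0.45 on the log2 scale.

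The direction of several regulators depended on the scaling. Scaling by total counts moved the median log2 fold change of all genes from 0.00 to 0.28. With that scaling 4 regulators were called higher (Celf1, Celf2, Mbnl3 and Rbfox2) and 0 lower, beside 50.7% and 14% of all genes. Across both scalings Celf2 and Mbnl3 had positive fold changes and Mbnl1, Rbfox1 and Rbm24 negative ones, Rbm20 went from -0.27 to -0.00, and Mbnl2, Celf1 and Rbfox2 changed sign.

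**Figure D1:**
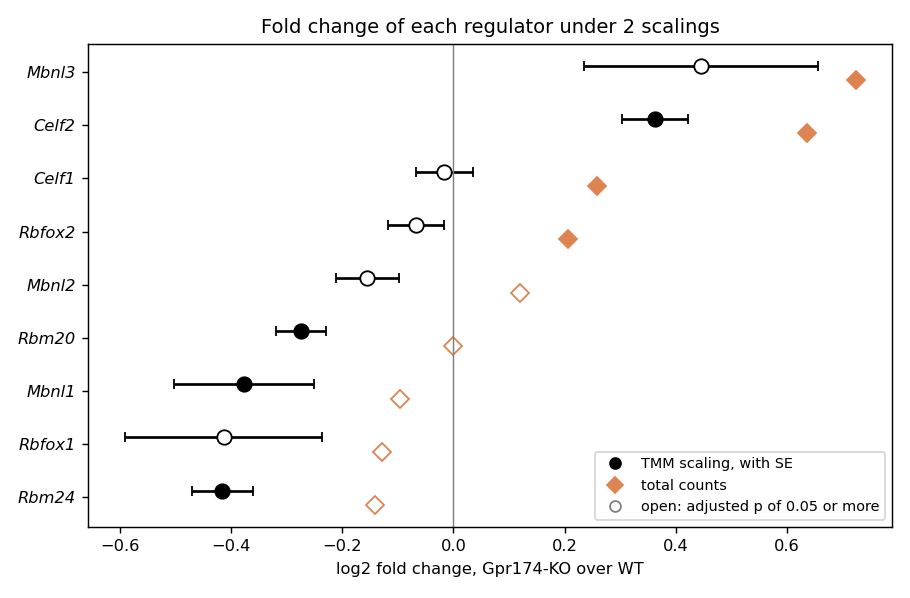
Log2 fold change of each regulator in Gpr174-KO over WT (horizontal axis) under TMM scaling (circles, with the standard error) and under scaling by total counts (diamonds, no error shown), filled where the adjusted p was under 0.05. Celf2 is to the right of 0 and filled under both scalings, and Rbm24 stays to the left of 0 under both, filled under TMM only.

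Among the MBNL genes, Mbnl1 had 248, 220 and 173.6 CPM in WT replicates 1 to 3 and 158, 164 and 171.9 CPM in Gpr174-KO. The knockout libraries were all lower, although the highest of them lay just under the lowest WT library. Mbnl1 was lower in Gpr174-KO with a log2 fold change of -0.38 (SE 0.126, adjusted p = 0.0403 by edgeR), a call that was lost in 5 of the 6 fits that left out 1 library. The change was -0.25 without WT replicate 1 (adjusted p = 0.0868 by edgeR), -0.35 without WT replicate 2 and -0.35, -0.37 and -0.41 without Gpr174-KO replicates 1, 2 and 3, with adjusted p of 0.0813 to 0.125 by edgeR. Without WT replicate 3 it was -0.50 and the call held. The WT order of Mbnl1 followed that of the summed mature fibre markers, which were 211935, 185433 and 148149 CPM in replicates 1 to 3. In Gpr174-KO these markers summed to 74717, 71721 and 67489 CPM, the reverse of the order of Mbnl1. The part of fibre content in the difference between groups was not tested.

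Mbnl2 had 247, 240 and 229 CPM in WT and 221, 211 and 210 CPM in Gpr174-KO. The 3 knockout libraries lay below the 3 WT libraries. The log2 fold change was -0.15 (SE 0.0574) and narrowly missed the threshold (adjusted p = 0.0560 by edgeR), and it turned to 0.12 with total counts. Mbnl3, the member that is best known from myoblasts and regenerating muscle, had 80, 58 and 51 counts in WT and 111, 93 and 121 in Gpr174-KO. Its groups overlapped in CPM, at 2.87 to 4.98 and 4.38 to 5.63. The log2 fold change of 0.45 (SE 0.211) was not called (adjusted p = 0.113 by edgeR), and it ranged from 0.29 (adjusted p = 0.205 by edgeR) without WT replicate 3 to 0.70 (adjusted p = 0.0125 by edgeR) without WT replicate 1. The regenerating fibre markers had 7 of 12 genes called higher and 1 lower in Gpr174-KO, beside 27% and 27.6% of all genes. The embryonic myosin gene Myh3 is in this list but was not called (log2 fold change 0.85, adjusted p = 0.124 by edgeR). The sums of the list overlapped between groups at 12086 to 14981 and 10931 to 13345 CPM.

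Of the CELF genes, Celf1 had 111, 109 and 104 CPM in WT and 106, 104 and 110 CPM in Gpr174-KO. The groups overlapped throughout, and the difference of -0.02 (SE 0.0514, adjusted p = 0.806 by edgeR) was smaller than its error. With total counts Celf1 was called higher instead, at 0.26 (adjusted p = 0.00537 by edgeR), close to the shift of the median gene. Celf2 had 104, 101 and 104 CPM in WT and 126, 129 and 142 CPM in Gpr174-KO. Every knockout library was above every WT library. Celf2 rose by 28.6%, a log2 fold change of 0.36 (SE 0.0601, adjusted p = 0.00316 by edgeR), and its call held in all 6 fits without 1 library, with values from 0.31 to 0.40. Celf2 is also expressed in leukocytes, and 9 of 10 macrophage markers were higher in Gpr174-KO, from 1444 to 2239 CPM in sum to 3372 to 3434 CPM. The part of leukocyte RNA in the Celf2 difference was not tested.

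Rbfox1, the RBFOX gene largely restricted to muscle and nerve, had 220, 187 and 132 CPM in WT and 123.5, 135 and 147 CPM in Gpr174-KO. WT replicate 3 fell within the knockout range, so the groups overlapped. The log2 fold change of -0.41 (SE 0.178) was not called (adjusted p = 0.0877 by edgeR), and it ranged from -0.23 (adjusted p = 0.229 by edgeR) without WT replicate 1 to -0.58 (adjusted p = 0.00112 by edgeR) without WT replicate 3. It was called with DESeq2 (-0.42, adjusted p = 0.0473). The spread in WT was 1.66-fold between the highest and the lowest library, second among the 9 to the 1.74-fold of the scarce Mbnl3. Rbfox2, the widely expressed member, had 189, 192 and 199 CPM in WT and 186, 183 and 185 CPM in Gpr174-KO. The groups were apart by a small margin, and the change of -0.07 (SE 0.0502, adjusted p = 0.293 by edgeR) was not called and turned to 0.21 (adjusted p = 0.0309 by edgeR) with total counts.

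Rbm20, the titin splicing repressor, had 59.3, 59.5 and 60.5 CPM in WT and 49.0, 50.9 and 48.3 CPM in Gpr174-KO. The knockout libraries were all lower and both groups were tight. The log2 fold change was -0.27 (SE 0.0447, adjusted p = 0.00299 by edgeR), and with total counts it was -0.00 (adjusted p = 0.984 by edgeR). Rbm24 had 277, 271 and 263 CPM in WT and 196, 205 and 207 CPM in Gpr174-KO. No knockout library reached the WT range. Rbm24 fell by 0.42 on the log2 scale (SE 0.0553, adjusted p = 0.00164 by edgeR), the lowest adjusted p among the 9, and with total counts the change was -0.14 (adjusted p = 0.0740 by edgeR). The calls of Rbm20 and Rbm24 under TMM held in all 6 fits without 1 library. Both genes are expressed in fibres. The 18 mature fibre markers were all lower in Gpr174-KO (17 of 18 with total counts), with a median log2 fold change of -1.44. The part of fibre content in the Rbm20 and Rbm24 differences was not tested.

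Ratios between members within a library do not depend on the library scaling. The summed TPM of Celf1 and Celf2 over that of Mbnl1, Mbnl2 and Mbnl3 was 0.279, 0.294 and 0.327 in WT and 0.373, 0.373 and 0.393 in Gpr174-KO. The ratio was higher in every knockout library, at 0.380 ± 0.0114 against 0.300 ± 0.0243 (SD, n = 3, exact permutation test, 2-sided, p = 0.1, the smallest that 3 against 3 can give). The share of Mbnl3 in the Mbnl sum was 0.546%, 0.405% and 0.432% in WT and 0.743%, 0.758% and 0.968% in Gpr174-KO. It was again higher in every knockout library (exact permutation p = 0.1, 2-sided), although Mbnl3 stayed under 1% of the sum in TPM. With counts in place of TPM both ratios kept their direction. The Mbnl3 share was then 0.707% to 0.997% in WT and 1.16% to 1.45% in Gpr174-KO. Celf2 made up 40.8% to 42.5% of the Celf1 and Celf2 sum in WT and 47.2% to 50.1% in Gpr174-KO, a share chosen after its values were seen.

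The 221 transcript rows of the 9 genes gave a less settled picture, because a read can fit several rows of a gene and RSEM, the program named in the submitters' notes, shares them out by estimate. Of the rows, 150 passed the filter and 38 held at least 5% of their gene's counts over the 6 libraries. In 47 of the 221 rows a library with under 1 count stood beside one of the same group with 50 counts or more. Mbnl3 was an extreme case, with NM_001310515.1 holding 57.7%, practically all and 97.2% of its counts in WT and 0%, 0% and 20.3% in Gpr174-KO, where XM_011250980.3 took 76.4% in replicate 1, XM_006541437.3 67.0% in replicate 2 and XM_006541435.1 68.2% in replicate 3. These shares rest on 51 to 121 counts a library. For Rbm20, NM_001170847.1 held 41.1%, 93.8% and 87.4% in WT and 40.0% to 47.5% in Gpr174-KO, and most of the rest fell to XM_011247371.1, which had 0.04 counts in WT replicate 2. The reads of Mbnl1 and Celf2 were spread thinly, the largest row holding 6.46% of the former and 4.97% of the latter over 45 and 53 rows, with 0 rows of either called.

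At the transcript level 5 of the 150 member rows were called, against 12.4% of all 35524 rows tested. Rbm24 has only the row NM_001081425.1, and it fell by 0.38 on the log2 scale (SE 0.0456, adjusted p = 0.0173 by edgeR). The Rbfox1 row XM_011245918.3 had 190, 209 and 186 counts in WT and 130, 157 and 157 in Gpr174-KO, a change of -0.69 (adjusted p = 0.0438 by edgeR). The Rbfox2 row NM_001286417.1 had 213, 197 and 228 counts in WT and 136, 155 and 182 in Gpr174-KO, a change of -0.73 (adjusted p = 0.0415 by edgeR). The Rbfox1 and Rbfox2 rows held 3.5% to 7.9% of their gene's counts. The Celf1 row XM_017315295.1 was listed at 0 in the 3 WT libraries and had 89, 133 and 150 counts in Gpr174-KO (adjusted p = 0.0181 by edgeR). This was 33.6-fold higher when 3 counts per WT library are taken as the floor, which covers counting error but not the sharing of reads among rows. In 11 of the 22 Celf1 rows a library under 1 count stood beside one of its group with 50 or more. XM_017315295.1 held 4.0% to 6.3% of Celf1 counts in the knockout, and the total of Celf1 was not called. The row calls depended on single libraries: without WT replicate 2 and without any 1 of the Gpr174-KO libraries, 0 member rows were called, with 1 to 28 called among all rows, while without WT replicates 1 and 3 in turn 6 member rows were.

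The remaining row called was NM_001360376.1 of Mbnl2 (log2 fold change 1.81, adjusted p = 0.0192 by edgeR), and Mbnl2 was the only one of 7 regulators tested whose mix of transcripts differed (edgeR's diffSpliceDGE, Simes adjusted p = 0.0416), against 7.49% of the 8251 genes tested. This row had 178, 180 and 140 counts in WT and 530, 745 and 888 in Gpr174-KO. Its share of Mbnl2 counts was 4.5%, 4.5% and 3.4% in WT and 11.4%, 16.6% and 19.7% in Gpr174-KO, higher in every knockout library, with a log2 change of 1.92 relative to the gene (adjusted p = 0.0374 by diffSpliceDGE). NM_001360379.1 had 44.0%, 37.6% and 32.0% in WT and 7.5%, 19.1% and 25.1% in Gpr174-KO, lower in every knockout library, with a log2 change of -1.17 (adjusted p = 0.0287 by diffSpliceDGE). These 2 rows are the member rows called, among 148 tested, against 2.83% of all rows tested. The other main rows, NM_207515.2 at 22.8% to 32.4% in WT and 27.7% to 41.5% in Gpr174-KO and XM_030247588.1 at 16.9% to 38.6% and 25.8% to 38.3%, overlapped between groups.

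**Figure D2:**
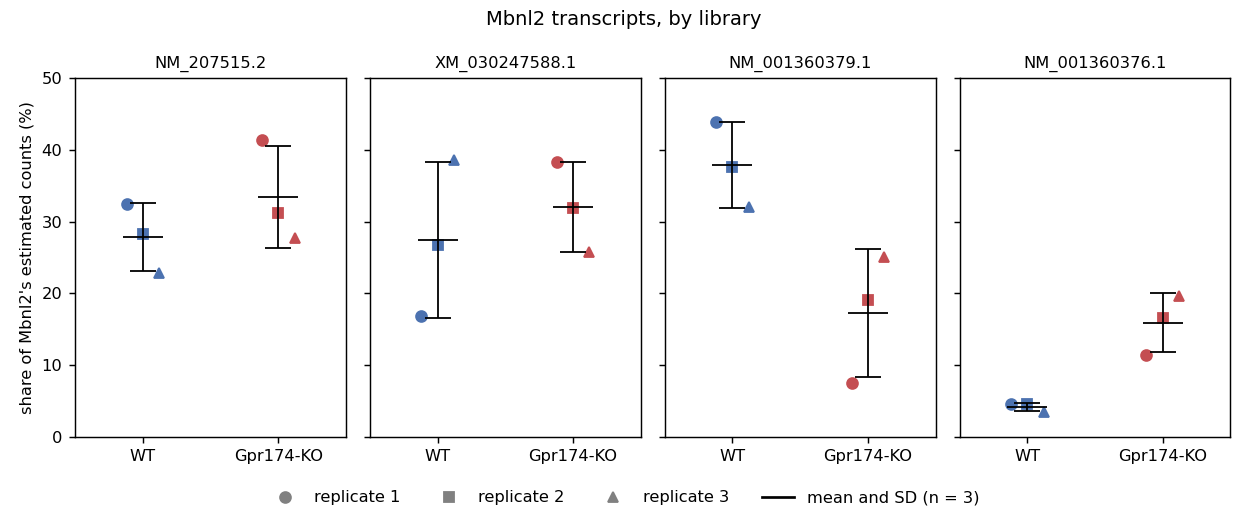
Share of Mbnl2's estimated counts (vertical axis, %) held by each of its 4 main transcript rows in the 3 WT and 3 Gpr174-KO libraries, with bars for the mean and SD. NM_001360379.1 is lower and NM_001360376.1 higher in all 3 Gpr174-KO libraries, and the other rows overlap.

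The Mbnl2 call was not stable. It was lost without WT replicate 2 (adjusted p = 0.257 by diffSpliceDGE), without Gpr174-KO replicate 2 (0.358), without WT replicate 3 (0.0672), without Gpr174-KO replicate 3 (0.0513) and with a minimum of 10 counts in every library (0.0704), and it held with limma's diffSplice (adjusted p = 0.00422). The effective lengths of the 2 rows, worked out from counts and FPKM, were 4359 and 4354 bases, with rounding errors of up to 2.05 and 1.00 bases, so they were nearly equal in length, and they could not be matched here to a GENCODE transcript. Of the next strongest, Celf1 had an adjusted p of 0.120 for its mix of transcripts by diffSpliceDGE, and its row XM_017315295.1 one of 0.0501.

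The 54-base exon could be followed in few rows. In Mbnl1, 7 of 45 rows were matched to a GENCODE transcript and held 21.4% to 27.6% of its counts, and among their counts the 2 rows with the exon took 22.7%, 19.02% and 25.3% in WT and 36.7%, 24.4% and 19.1% in Gpr174-KO. In Mbnl2, 3 of 9 rows were matched, holding 23.1% to 41.6% of its counts, and the rows with the exon took 1.04% to 2.95% in WT and 0.336% to 3.48% in Gpr174-KO. The groups overlapped in both genes, and no difference in this exon was detectable with the matched rows.

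Other splicing regulators were read from lists of genes. SR proteins, which bind exonic enhancers, had 7 of 12 genes tested called higher and 0 lower, beside 27% and 27.6% of all genes, with a median log2 fold change of 0.19. Of those called, the highest were Srsf3 at 0.42 and Srsf2 at 0.34 and the lowest Srsf11 at 0.17 and Srsf6 at 0.21. Of 23 hnRNP genes, whose proteins often silence exons, 16 were called higher and 0 lower with a median of 0.24, from Hnrnpa1 at 0.48 and Hnrnpf at 0.47 down to Hnrnpl at 0.21 and Hnrnpa3 at 0.16. Among 20 other splicing regulators tested, 6 were higher and 6 lower, with Ptbp3 at 0.57 and Ptbp1 at 0.56, repressors of muscle and neuronal exons, at one end and the neuronal factor Nova2 at -1.07 and Fxr1, itself a muscle splicing target, at -0.60 at the other. Of 4 relatives of the 9 that were tested, only Rbm38 was called, at -0.73. All genes tested had a median of 0.00, and the median of the 9 regulators was -0.15. With total counts, where 50.7% of all genes were called higher and 14% lower, the medians were 0.46 for SR proteins (12 of 12 higher), 0.51 for hnRNPs (22 of 23 higher), 0.34 for the other regulators (13 higher and 5 lower) and 0.21 for the relatives (1 higher and 1 lower), against 0.12 for the 9 regulators.

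**Figure D3:**
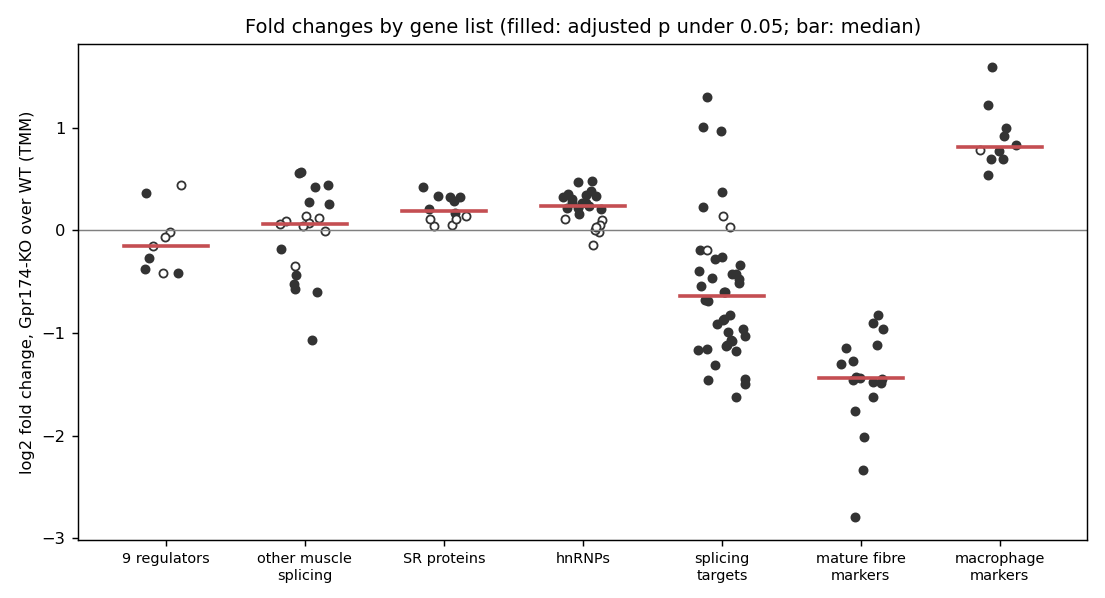
Log2 fold change in Gpr174-KO over WT under TMM scaling (vertical axis) for each gene tested in 7 lists, filled where the adjusted p was under 0.05, with a bar at each list's median. The 9 regulators lie between -0.42 and 0.45, while splicing targets have a median of -0.64 and mature fibre markers one of -1.44. Ttn, Neb, Tnnt3, Atp2a1 and Ryr1 are plotted in both of the latter lists.

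Muscle transcripts known as splicing targets of these proteins fell in total, with 34 of 42 lower and 5 higher, beside 27.6% and 27% of all genes. Their median log2 fold change was -0.64. With total counts 26 were lower and 6 higher, beside 14% and 50.7% of all genes, with a median of -0.36. Ttn, Neb, Tnnt3, Atp2a1 and Ryr1 are in both this list and that of the mature fibre markers. The mix of transcripts differed in 13 of 41 targets tested (Simes adjusted p under 0.05 by diffSpliceDGE), against 7.49% of all genes. All 13 were among the 27 targets with at least 200 CPM, a class in which 16.0% of all genes were called. The count was 7 without WT replicate 2, 8 without Gpr174-KO replicate 2 and 1 with replicates 1 and 3 only. The 4 with the lowest p were Neb, Tpm1, Tnnt3 and Pdlim7. The lowest p in Neb, which encodes the thin filament protein nebulin, came from the row XM_006497771.1, which had 2755, 1791 and 127 counts in WT and was listed at 0 in all Gpr174-KO libraries, so the WT libraries differed widely among themselves. In Tnnt3, fast troponin T, XM_006508591.1 had 2.81%, 2.18% and 0.571% of the counts in WT and 0.151%, 0.309% and 0.604% in Gpr174-KO, so that its groups overlapped. Ttn, which encodes the giant sarcomere protein titin that RBM20 regulates, was also called (adjusted p = 0.0245 by diffSpliceDGE) and is named here after its values were seen. Its main row NM_028004.2 held 81.7%, 81.8% and 82.4% of the counts in WT and 81.2%, 81.6% and 82.1% in Gpr174-KO, with overlapping groups, and the call came from XM_017317139.1, at 0.623% to 1.23% in WT and 1.46% to 2.23% in Gpr174-KO.

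In Pdlim7 and Tpm1 the groups did not overlap, and the 2 rows compared in each could be matched to GENCODE transcripts. In Pdlim7, which encodes a PDZ and LIM domain protein that binds actin filaments, the rows differ by 1 coding exon. NM_026131.4 has a short exon of 17 bases at chr13:55507864-55507880 and NM_001114087.2 has a long one at chr13:55508208-55508326, both internal and on the minus strand (GRCm38). They are shown since they are the coding exons by which the 2 rows compared differ.
Pdlim7 short exon: gtgcagacctctgacaa
Pdlim7 long exon: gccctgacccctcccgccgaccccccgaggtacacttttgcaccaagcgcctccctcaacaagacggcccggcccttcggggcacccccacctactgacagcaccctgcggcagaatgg

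The row with the short exon had 4333, 4163 and 3702 counts in WT and 1998, 1666 and 1348 in Gpr174-KO, and its share of Pdlim7 counts fell from 64.5% ± 6.75 to 28.0% ± 3.21 (SD, n = 3). The row with the long exon had 578, 747 and 837 counts in WT and 1477, 1589 and 1447 in Gpr174-KO, and its share rose from 11.4% ± 1.79 to 25.5% ± 1.97. The groups were far apart for both, with log2 changes relative to the gene of -1.19 (adjusted p = 3.13e-05 by diffSpliceDGE) and 1.16 (adjusted p = 0.00128 by diffSpliceDGE). The share of the long-exon row rose by less than that of the short-exon row fell, so other Pdlim7 rows gained share as well. Those other rows were not searched for either exon. Pdlim7 as a whole had a log2 fold change of -0.42 (adjusted p = 0.00580 by edgeR).

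In Tpm1, which encodes alpha-tropomyosin, NM_001164248.1 is the dominant row and NM_024427.4 ends in a different coding exon. The 79 bases at chr9:67029664-67029742 belong to the former and the 80 coding bases at chr9:67023362-67023441 to the latter, on the minus strand (GRCm38), and they are shown because they encode alternative ends of the protein, the former being the end used in striated muscle.
Tpm1 striated end: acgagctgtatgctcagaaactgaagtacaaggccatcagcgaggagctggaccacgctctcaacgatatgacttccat
Tpm1 other end: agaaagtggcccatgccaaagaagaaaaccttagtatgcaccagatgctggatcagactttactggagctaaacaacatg

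NM_024427.4 had 4271, 5656 and 6855 counts in WT and 9174, 9034 and 8823 in Gpr174-KO, and its share of Tpm1 counts rose from 2.44% ± 0.872 to 8.53% ± 0.336 (SD, n = 3), a log2 change of 1.86 relative to the gene (adjusted p = 9.94e-09 by diffSpliceDGE). NM_001164248.1 had 175041, 159060 and 133852 counts in WT and 70746, 67571 and 62870 in Gpr174-KO. Its share was 65.6% to 66.5% and 63.1% to 63.6% and was not called (adjusted p = 1.00 by diffSpliceDGE), while Tpm1 as a whole had a log2 fold change of -1.49. The second end is used in many cells outside striated muscle, and fibroblast markers stood in sum at 32916 to 36138 CPM in Gpr174-KO against 16742 to 25015 CPM in WT. Of these 8 markers, 4 were called higher and 3 lower, the latter being Pdgfra, Dcn and Lum. The part of non-fibre cells in the Pdlim7 and Tpm1 differences was not tested.

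**Figure D4:**
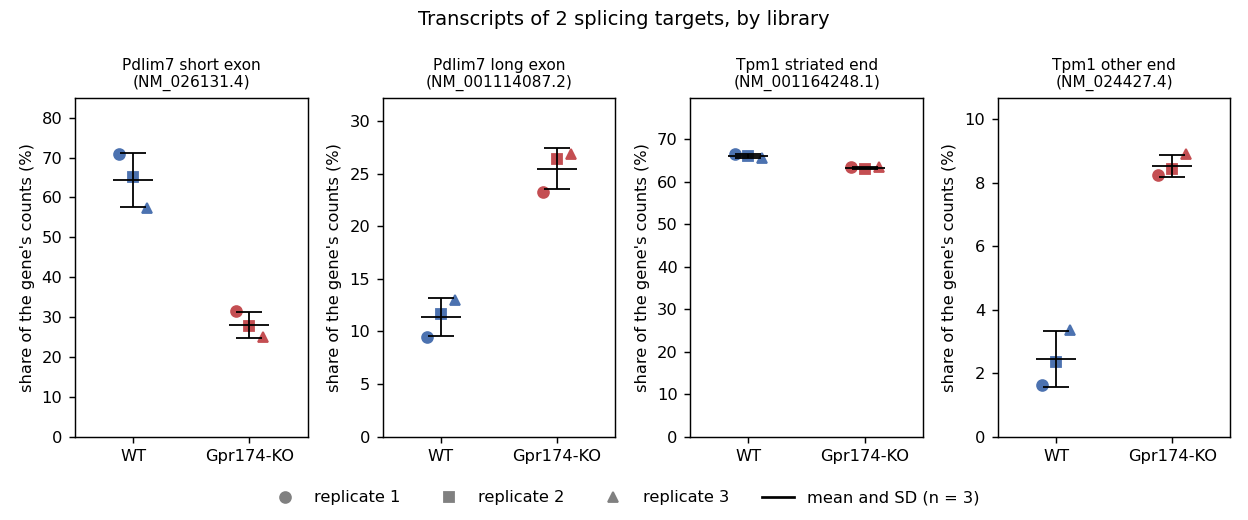
Share of the gene's estimated counts (vertical axes, %, each starting at 0 with its own scale) held by 2 rows of Pdlim7 and 2 of Tpm1 in the 3 WT and 3 Gpr174-KO libraries, with bars for the mean and SD. The Pdlim7 row with the short exon falls from 57.4% or more to 31.4% or less, and the Tpm1 row with the non-striated end rises from 3.36% or less to 8.24% or more.

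The genes whose pattern over the 6 libraries was most like that of each regulator were sought among 9971 other genes with at least 10 CPM on average (9972 for Mbnl3), by Pearson's r of log2 CPM. They are given as a description, since all points share the same 6 libraries and 2 groups. Myl2 was closest to Rbm24 (r = 0.999), Dcaf5 to Rbm20 (r = 0.998), Cspg4b to Celf2 (r = 0.998), Mtg2 to Mbnl2 (r = 0.999) and Synrg to Mbnl1 (r = 0.998). Nfyb was closest to Rbfox1 (r = 0.997), Ccng2 to Rbfox2 (r = 0.995), Ttll4 to Celf1 (r = 0.988) and Golga1 to Mbnl3 (r = 0.981). Rbm24 had 1548 genes with r above 0.95, Mbnl2 1416, Rbm20 748 and Mbnl1 673, whereas Mbnl3 had 16 and Celf1 9. Mbnl1 and Rbfox1, which both spread widely in WT, had an r of 0.985 with each other, and Celf2 had one of -0.967 with Rbm20. A high r says nothing about the size of a change, as the log2 fold change of Myl2 was -4.29 and that of Rbm24 -0.42.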

How the data were processed

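Total RNA of ischemic gastrocnemius muscle from 3 WT and 3 Gpr174-KO mice was sequenced on a BGI platform according to the study's methods, while the labels name an Illumina TruSeq kit. The authors deposited estimated counts (RSEM, not normalized, need not be whole), TPM and FPKM per RefSeq transcript. The submitters' processing notes name HISAT2 2.0.4, Bowtie2 2.2.5, RSEM 1.2.12 and GRCm39, without roles, and the strand use of the counting is not given in the sources used here. Without strand, reads from overlapping or antisense genes cannot be told apart.

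Counts were summed per Entrez gene and rounded, and 99.7% of the 18089 genes received a symbol. Library totals are given above, and counting floors of 3 counts cover counting error only. Genes and transcripts were compared with edgeR 4.0.16 (TMM scaling, filterByExpr, quasi-likelihood fit with robust set), transcript usage with diffSpliceDGE, both adjusted over all features tested, and ratios of TPM with an exact permutation test. The steps were tested on simulated data. The study used DEGseq, which was not used here. Alternatives were DESeq2 1.42.0, upper-quartile and total-count scaling, limma 3.58.1 (voom, diffSplice, and log2 of FPKM plus 1 or 0.1 where 3 libraries reached an FPKM of 1), leaving out the filter, a minimum of 10 counts per library, a replicate block and leaving out each library. Fits on replicates 1 and 3 alone were added after seeing the data. Exons are from GENCODE M21 on GRCm38, a build other than the authors', with RefSeq rows matched by GENCODE's own table. R 4.3.3 and Python 3.11.15 were used.

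The members and the gene lists were chosen with earlier results of these data known. Named were all 9 members, their transcripts with at least 5% of the gene's counts or a call (in the text those on which a result turns), in each list of other splicing regulators the called genes with the 2 highest and 2 lowest fold changes, in the list of targets the 4 genes with the lowest usage p instead, the gene most like each member, and Gpr174. The replicates are separate mice according to the study's methods.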

Additional observations from a re-analysis of the deposited data

How the results depend on the processing

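Of 142 values of the 9 regulators under alternatives, 104 matched the reported value in sign and call, 17 lost the call with the same sign, 6 gained one and 15 reversed. Mbnl2 reversed to 0.12 with total counts and in both FPKM fits. It was called higher in the FPKM fits (adjusted p = 0.0466 and 0.0454 by limma). It was called lower with DESeq2 (adjusted p = 0.0446) and without WT replicate 3 (adjusted p = 0.0172 by edgeR). Celf1 reversed to 0.26 with total counts, 0.18 and 0.19 with FPKM, 0.0078 with upper-quartile scaling and 0.0070 with replicates 1 and 3 only, and it ranged from -0.038 to 0.012 without 1 library. Rbfox2 reversed to 0.21, 0.18 and 0.19, and Rbm20 to 0.0083 and 0.0093 in the FPKM fits. The cause was not tested beyond the shift of the median gene. Regulators called were 4 higher and 0 lower with total counts and both FPKM fits, 5 were lower with DESeq2, and 0 were called in either direction with replicates 1 and 3 only. The 4 were not the same genes, since in the FPKM fits Mbnl3 was not tested and Mbnl2 was called. Leaving out 1 library gave 3 to 6 called, 1 to 2 higher and 2 to 5 lower. Member transcripts called were 3 with total counts, 0 with replicates 1 and 3 only and 0 to 6 without 1 library. Members with differing transcript usage were 0 with 10 counts in every library, 0 with replicates 1 and 3 only and 0 to 2 without 1 library, and targets were 1 and 7 to 14. The other splicing lists had 36 called, or 54 with total counts. The replicate numbers are shared between groups, and the labels do not say that they pair samples. Deviations of same-numbered libraries correlated at 0.005 to 0.050, but 3 libraries a group cannot exclude a pairing. With a replicate block 3 regulators were called, Mbnl1 being lost (adjusted p = 0.0879 by edgeR), with 0 member transcripts, 0 members by usage and 10 targets. Differences in the Celf to Mbnl ratio were 0.0692 to 0.0931 and in the Mbnl3 share 0.290 to 0.405 without 1 library, where an exact permutation test of 3 against 2 cannot go below p = 0.2.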
